A study of Mus musculus with 2 samples.

Results

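MicroRNAs miR-21, miR-221 and miR-222 are linked to gliosis, the reaction of glial cells to injury and disease. They were measured here as 3 hairpin genes, Mir21a, Mir221 and Mir222, out of 2202 microRNA genes in the deposited count tables. The genes were chosen by symbol, from GENCODE M21, and not by a rule on their counts, though earlier results of these data were known. All 3 passed the detection rule of at least 10 reads in both libraries, as did 389 genes in all. The study sequenced small RNA of the hippocampus, labelled as a layer of it, from adult male mice of strain 5xFAD/CAST aged 8 to 10 months. 5xFAD is a transgenic model of Alzheimer disease that develops amyloid deposits with reactive astrocytes and microglia, and CAST is a wild-derived strain. The labels give 1 group of 2 libraries, biological replicates 1 and 2, with a tissue record each and 1 donor record for both. Whether the tissues came from separate animals is therefore not settled by the labels, and the spread between the libraries may be technical. Without a control group no effect of genotype, age or gliosis itself could be compared, and gliosis was not measured in these files.

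MicroRNAs are cut from hairpin transcripts and guide the silencing complex to messenger RNAs that pair with their seed, the stretch from base 2 to base 8. miR-21 is known as an injury-induced microRNA of reactive astrocytes, where it limits their hypertrophy, and of microglia. It represses the tumour suppressor Pdcd4. miR-221 and miR-222 are encoded side by side and share their seed. They are known to repress Cdkn1b, an inhibitor of the cell cycle, and Kit, the receptor for stem cell factor. They are abundant in blood vessel walls and raised in glioma.

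The mature sequences are shown first, since the seed decides which messages each microRNA can pair with. RefSeq (build GRCm38.p6) held all 3 genes, with 5 mature arms between them, given here from 5′ to 3′ with the seed in capitals.
mmu-miR-21a-5p: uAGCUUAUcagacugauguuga
mmu-miR-21a-3p: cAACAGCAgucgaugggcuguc
mmu-miR-221-5p: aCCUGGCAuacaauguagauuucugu
mmu-miR-221-3p: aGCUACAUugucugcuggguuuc
mmu-miR-222-3p: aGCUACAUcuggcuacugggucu
The arms miR-221-3p and miR-222-3p were identical from the 5′ end through base 8 and then diverged. Of the 23 positions compared, 11 were identical, and the first difference was U9C, counted from the 5′ end with the base of miR-221-3p first. Their seed therefore does not tell them apart, while their 3′ parts do.

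Other RefSeq microRNAs with the seed of a listed arm are shown to ask whether reads could have come from a relative. The seed of miR-21a-5p recurred in miR-21c, and that of miR-221-3p and miR-222-3p in miR-1928. The 21b sequence, a relative by name, differs within the seed by C4U from miR-21a-5p.
mmu-miR-21c: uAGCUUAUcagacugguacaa
mmu-miR-21b: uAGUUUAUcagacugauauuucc
mmu-miR-1928: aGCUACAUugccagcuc
Mir21b, Mir21c and Mir1928 each had 0 assigned reads in both libraries, which allows up to 0.877 CPM (assigned reads scaled to a common library total, the usual counts-per-1000000 unit) in replicate 1 and 1.06 CPM in replicate 2. These floors rest on 3 reads and cover counting error only. The longest run that a listed arm shared with another microRNA hairpin of the tables was 15 bases, between miR-21a-5p and Mir21c. None of the 3 hairpins held a run of 20 bases found in another microRNA gene. Reads that matched several places, 41.6% and 38.2% of all reads in replicates 1 and 2, carry no gene name, and copies outside microRNA genes were not searched.

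Mir21a (ENSMUSG00000065455.1) lies at mm10 chr11:86584067-86584158 on the minus strand. It is inside the last exon of Vmp1, a gene of autophagy, within the 3′ untranslated region and 202 bases before the end of that gene on the same strand. Mir221 (ENSMUSG00000065422.1, chrX:19146294-19146388) and Mir222 (ENSMUSG00000065471.1, chrX:19146893-19146971) both lie on the minus strand, with 504 bases between them. Neither overlaps another annotated gene. The nearest, the noncoding Gm14636, lies 10009 bases beyond Mir222 on the same strand. No further microRNA gene was annotated within 10 kb of Mir21a or of the pair. Counts were made per hairpin, so the hairpins of the pair are shown with the 3′ arm in capitals.
Mir221: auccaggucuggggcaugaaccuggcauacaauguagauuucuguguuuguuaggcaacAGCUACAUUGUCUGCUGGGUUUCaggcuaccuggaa
Mir222: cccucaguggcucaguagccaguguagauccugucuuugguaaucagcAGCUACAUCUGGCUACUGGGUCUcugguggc
A read from either arm of a hairpin adds to the same count, so the values below belong to a gene and not to 1 arm.

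**Figure D1:**
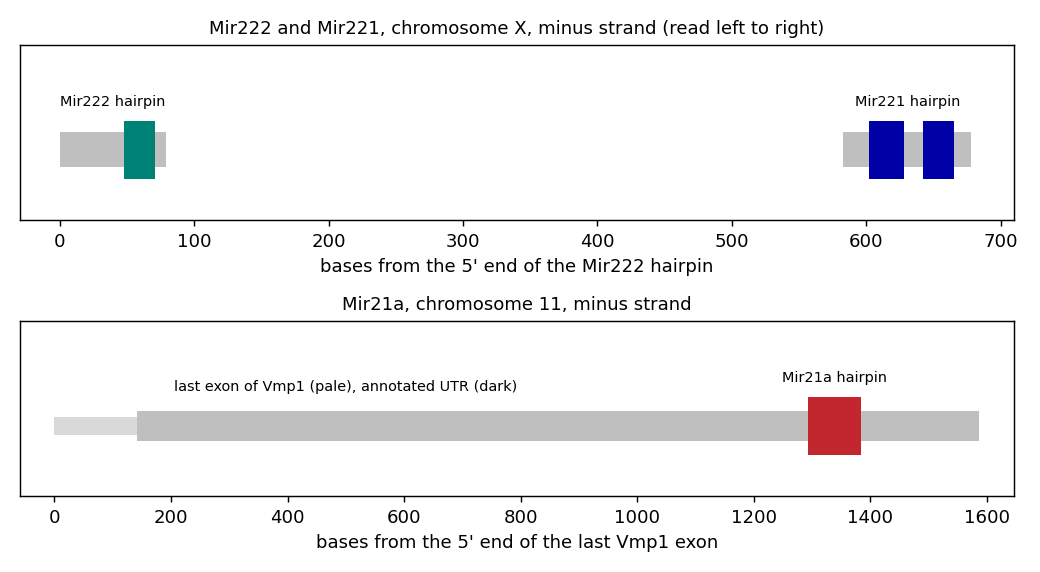
Places of the 3 hairpins, drawn 5′ to 3′ on the minus strand. The horizontal axes give bases from the 5′ end of the Mir222 hairpin (top) and of the last Vmp1 exon (bottom); coloured blocks mark mature arms (top) and the Mir21a hairpin (bottom). Mir222 and Mir221 are separated by 504 bases, and Mir21a lies near the end of the Vmp1 untranslated region.

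Replicate 1 held 3421977 reads assigned to microRNA genes and replicate 2 held 2820468, which were 35.2% and 33.0% of all reads. Both libraries held neuronal microRNAs, with 11 of 14 listed genes detected, led by Mir132 at 13708 and 11794 CPM. The neuron-defining copies Mir124a-2 and Mir124a-3 were at 0, and the copy Mir124a-1 had 5 reads in each library. Each of these copies shares sequence with another gene. Reads of miR-124 may therefore be among those without a gene name, and these counts do not show that it was absent. Markers of striated muscle and liver (10 genes) summed to 68.1 and 62.0 CPM and those of red blood cells (3 genes) to 47.6 and 59.9 CPM. The listed Mir1a and Mir133 copies all share sequence with another gene. Their reads may be among those without a gene name, so the muscle sum may be too low.

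Mir221 was the most abundant of the 3 genes in both libraries. It received 24869 reads in replicate 1 and 22760 in replicate 2. The level was 7267 CPM (exact Clopper-Pearson 95% interval 7178 to 7358) in replicate 1 and 8070 CPM (7966 to 8175) in replicate 2, a mean of 7669 ± 567 CPM (SD, n = 2). It stood at rank 27 and rank 24 of the detected genes. The libraries thus gave nearly the same place to Mir221.

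Mir222 received 3925 reads in replicate 1 and 9879 in replicate 2. The level was 1147 CPM (1111 to 1183) in replicate 1 and 3503 CPM (3434 to 3572) in replicate 2, or 2325 ± 1666 CPM. Replicate 2 was the high library, with rank 45 against rank 83 in replicate 1. The SD was 71.6% of the mean, against 7.40% for Mir221 and 48.3% for Mir21a.

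Mir21a received 6492 reads in replicate 1 and 2627 in replicate 2. The level was 1897 CPM (1851 to 1944) in replicate 1 and 931 CPM (896 to 968) in replicate 2, or 1414 ± 683 CPM. Here replicate 1 was the high library, with rank 64 against rank 96 in replicate 2. No read lay on the opposite strand of any of the 3 hairpins. In bulk tissue, fewer cells of a type and less RNA per cell cannot be told apart, so none of these levels is a level per cell.

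**Figure D2:**
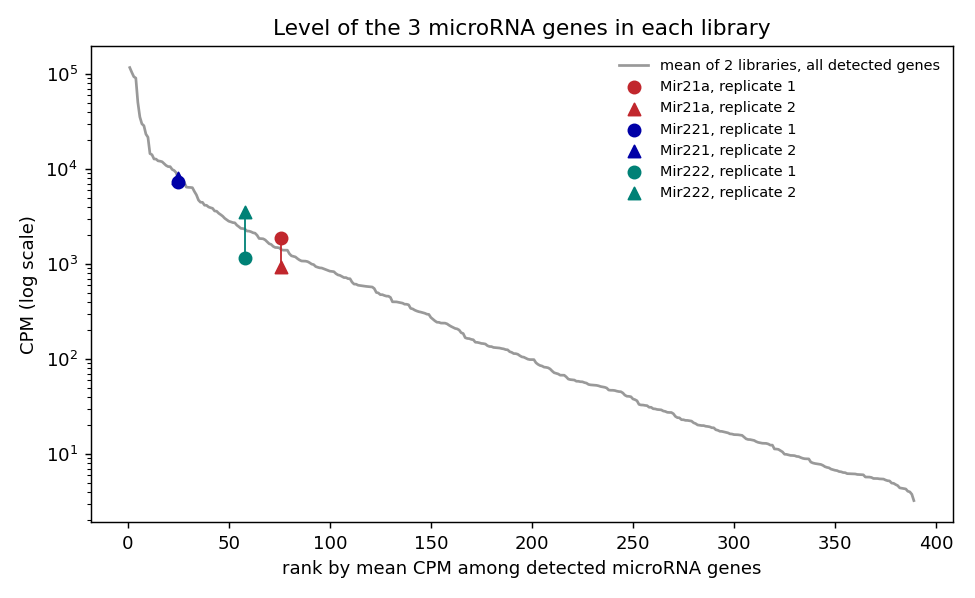
CPM on a log axis against the rank by mean CPM among 389 detected genes (grey line, mean of 2 libraries). Circles are replicate 1 and triangles replicate 2; Mir221 sits at 7267 and 8070 CPM, while Mir222 and Mir21a lie apart in opposite directions, so that their order differs between the libraries.

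The order of the levels held for Mir221 alone. Within replicate 1 there were 6.34 Mir221 reads for each Mir222 read and 3.83 for each Mir21a read. Within replicate 2 these read ratios were 2.30 and 8.66. Mir21a stood above Mir222 in replicate 1, with a read ratio of 1.65 (exact 95% interval 1.59 to 1.72), and below it in replicate 2, with a read ratio of 0.266 (0.255 to 0.278). Divided by hairpin length, the Mir21a to Mir222 ratios were 1.42 and 0.228, and the order in each library was as before. The mean levels of Mir21a and Mir222 differed by less than the SD of Mir222, so these libraries do not set an order between them.

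The 3 genes together took 1.03% of assigned reads in replicate 1 and 1.25% in replicate 2, or 1.14% ± 0.15. The reads of the shared-seed pair, Mir221 plus Mir222, made up 0.841% of assigned reads in replicate 1 and 1.16% in replicate 2. Scaled by TMM (trimmed mean of M-values, a library scaling that discounts extreme genes), the log2 ratio of the pair's sum was 0.36 (95% interval 0.34 to 0.38), replicate 2 over replicate 1. The intervals cover counting error in these libraries only.

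The libraries were compared gene by gene with a two-sided exact binomial test on TMM-scaled sizes, with Benjamini-Hochberg adjustment over all 389 detected genes. Such a test sets each difference against counting error in these 2 libraries, and it does not compare conditions. At an adjusted p threshold of 0.05 it called 67.6% of the detected genes, 33.9% higher and 33.7% lower in replicate 2, so a call by itself says little about a gene. All 3 genes were called, in different directions and sizes.

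Mir222 was 2.85-fold higher in replicate 2, a log2 ratio of 1.51 (95% interval 1.46 to 1.57); its adjusted p was too small to be represented and is listed as 0. Mir21a was 2.18-fold lower in replicate 2, a log2 ratio of -1.13 (-1.19 to -1.06; exact binomial test, adjusted p = 1.8e-271). Calls of at least 2-fold were made for 22.4% of the detected genes, and Mir222 and Mir21a are among them. Mir221 differed by a log2 ratio of 0.052 (0.026 to 0.078; exact binomial test, adjusted p = 0.00016). That value had the opposite sign, -0.00094, with DESeq2 size factors, where the gene was not called. The median log2 ratio of all detected genes was 0.053 under TMM, so Mir221 lay at the middle of the table.

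The difference between the libraries was wide for many genes, and the counting intervals do not show that spread. Across all detected genes the median absolute log2 ratio was 0.52 and the common biological coefficient of variation 0.41 (edgeR). With that spread as the error (edgeR exact test), none of the 3 genes passed. The unadjusted p was 0.084 for Mir222, 0.19 for Mir21a and 0.95 for Mir221, and the adjusted p was 1 for each. That error is taken from the same 2 libraries and includes the difference under test. In the 133 genes that held 1000 reads or more in each library, 7 had a larger absolute log2 ratio than Mir222, 14 a larger one than Mir21a and 124 a larger one than Mir221.

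**Figure D3:**
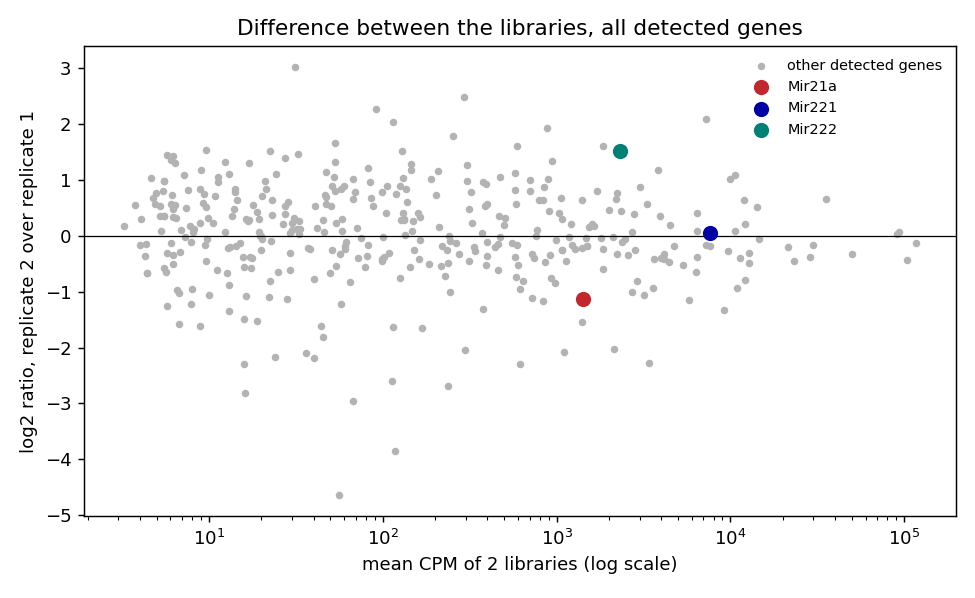
Log2 ratio of replicate 2 over replicate 1 (TMM-scaled, vertical axis) against mean CPM on a log axis for 389 detected genes, 1 point per gene. Mir222 lies at 1.51, Mir221 at 0.052 and Mir21a at -1.13, each resting on over 1000 reads per library.

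Mir221 and Mir222 are neighbours, yet their reads did not keep 1 proportion. Mir221 made up 86.4% of the pair's reads in replicate 1 (exact Clopper-Pearson 95% interval 86.0 to 86.8) and 69.7% in replicate 2 (69.2 to 70.2), a mean of 78.1% ± 11.8. The proportion of Mir222 to Mir221 reads was 2.75-fold higher in replicate 2 (exact 95% interval 2.64 to 2.87), or 1.46 on the log2 scale. This ratio is formed within each library, so no scaling between the libraries enters it. On TMM-scaled counts Mir222 differed by 1.51 and Mir221 by 0.052, so the ratio differed almost wholly through Mir222.

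Such gaps occurred at other neighbours too. Detected genes next to each other on 1 strand within 10 kb formed 106 pairs, some of which share a gene. The median absolute difference of their log2 ratios was 0.71, against 1.46 for Mir221 and Mir222, and 18 pairs had a larger difference. Of the 24 pairs with at least 1000 reads in every gene and library, 5 had a larger one, and their median was 0.57. One of these 5 is Mirlet7e and Mir125a, separated by 367 bases, with a difference of 1.47. Mir376a with Mir300, Mir300 with Mir381, and Mir381 with Mir487b, also among the 5, lie in a row on chromosome 12. Many of the 18 pairs, such as Mir299a with Mir380 and Mir380 with Mir323, lie in that row too. The 18 and the 5 therefore do not count separate places, and some of these pairs hold a gene that shares sequence. All pairs named here were named after their values were seen. In mean level, Mir221 and Mir222 differed by 1.72 on the log2 scale, and 68 of the 106 pairs were further apart.

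**Figure D4:**
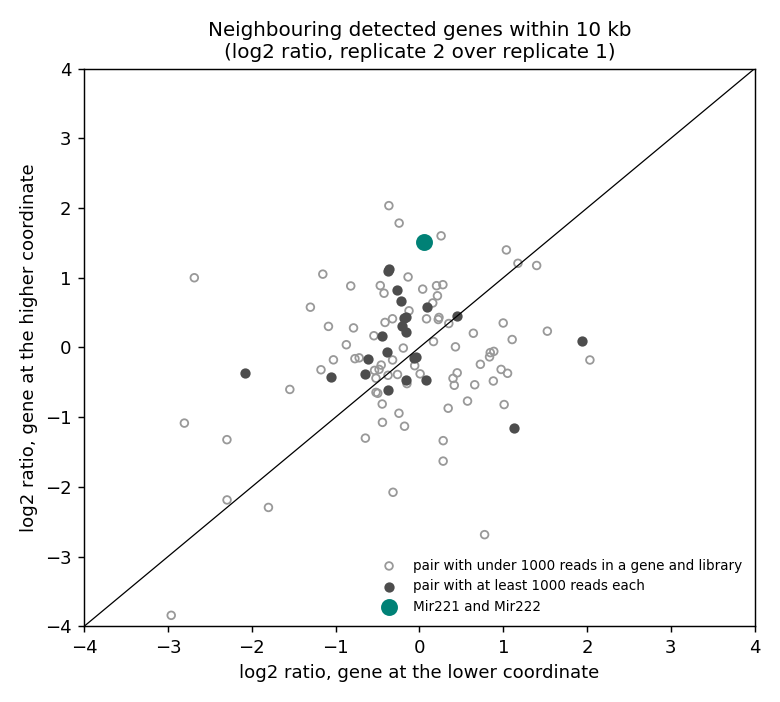
Log2 ratio (replicate 2 over replicate 1) of the gene at the higher coordinate against that of the gene at the lower coordinate, for 106 neighbouring pairs of detected genes. Filled grey points have at least 1000 reads in each gene and library, and the line marks equal ratios. Mir221 and Mir222 lie 1.46 above the line.

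The genes with levels most like each member were found by the distance in log2(CPM + 1) over both libraries. With 2 libraries this is a likeness of level more than of pattern. Mir221 was nearest to Mir126a (7871 and 7464 CPM), an endothelial microRNA made from the Egfl7 gene, with a distance of 0.16. Next came the neuronal Mir128-1 (7355 and 7046 CPM, uncertain because it shares sequence with Mir128-2) and Mir137 (5986 and 6832 CPM). Mir222 was nearest to Mir423 (869 and 2826 CPM, distance 0.51), which lies in an intron of Nsrp1. Mir874 and Mir187 followed, at distances of 0.54 and 0.62. Mir21a was nearest to Mir34c (2045 and 750 CPM, distance 0.33), a microRNA of ciliated cells. Mir872 and Mir93 followed, at 0.58 and 0.63.

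Other microRNAs linked to gliosis and neuroinflammation differed in both directions, by log2 ratios from -2.30 to 0.67. Of the 15 listed genes, all detected, 9 were lower, 4 higher and 2 not called; their median log2 ratio was -0.20 against 0.053 over all detected genes, of which 33.7% were called lower and 33.9% higher. With library totals in place of TMM, 6 were lower and 4 higher, and with DESeq2 size factors 10 were lower and 4 higher. Mir23a was the most abundant, at 15031 and 9331 CPM (log2 ratio -0.79), but shares sequence with another gene and is uncertain. Mir29a had 10822 and 13347 CPM (0.20). Mir146, a brake on innate immune signalling that shares sequence, had 1132 and 1020 CPM (-0.25). Mir181c had 784 and 1335 CPM (0.67). Mir155, a driver of inflammatory signalling, had 227 and 214 CPM (-0.18). Mir21a, at a log2 ratio of -1.13, lay below 14 of these 15 genes, and Mir222 lay above all 15.

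Markers of other cell types also differed between the libraries, beside Mir21a and the pair. Each count of called genes is to be read against the 33.7% lower and 33.9% higher calls over all detected genes. The endothelial and mural list (4 genes, 3 detected) was lower in replicate 2 at all 3. The median log2 ratio was -1.32 and the summed level 21670 and 13158 CPM. Mir126a, its detected endothelial gene, had a log2 ratio of only -0.18, and Mir126b was measured but not detected. Mir143 and Mir145a of this list are neighbours, separated by 1301 bases, so its 3 detected genes are not independent. The microglia and leukocyte list (6 genes, all detected) had 5 lower and none higher, a median of -0.46 and sums of 5207 and 4484 CPM; with library totals 3 were lower, and with DESeq2 size factors 6. Mir342, the most abundant gene of that list, had 2385 and 2354 CPM (log2 ratio -0.12). Mir142, its leukocyte-defining gene, had 317 and 169 CPM and the lowest log2 ratio of the 6, -1.01. These lists are not separate from the gliosis-linked one: 4 of the 6 microglia and leukocyte genes and 1 of the 4 endothelial and mural genes are on it too, and these 5 include 4 of its 9 lower genes. Their part in the difference of Mir21a was not tested.

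Epithelial and choroid plexus markers were mostly lower in replicate 2 as well. All 7 detected of 10 epithelial genes were lower. Their median log2 ratio was -2.30, with sums of 964 and 198 CPM. Mir200a, Mir200b and Mir429 are neighbours, as are Mir182 and Mir183, so these 7 genes are not independent. Of the choroid plexus and ependyma list (7 genes, 5 detected), 3 were lower, among them the neighbours Mir34b and Mir34c, and 1 was higher. Its median was -0.60, with sums of 3416 and 1638 CPM. Mir449b was at 0. The same shares over all detected genes, 33.9% higher and 33.7% lower, apply to the neuronal list. Of its 11 detected genes, 8 were higher in replicate 2 and 3 lower, with a median of 0.48 and sums of 33869 and 35505 CPM. Both copies of Mir128, Mir138, Mir129 and Mir218 are among the 11, and these 8 share sequence with another gene. The copies of each microRNA had the same sign, so the neuronal counts are not independent. Of the oligodendrocyte list (3 genes, 2 detected), Mir338 was higher and Mir219a-2 lower, the latter uncertain because it shares sequence with another gene. The sums of that list were 5027 and 6671 CPM. The part of any of these in the levels of Mir21a or Mir222 was not tested. The counts of these 4 lists were the same with DESeq2 size factors and with library totals.

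**Figure D5:**
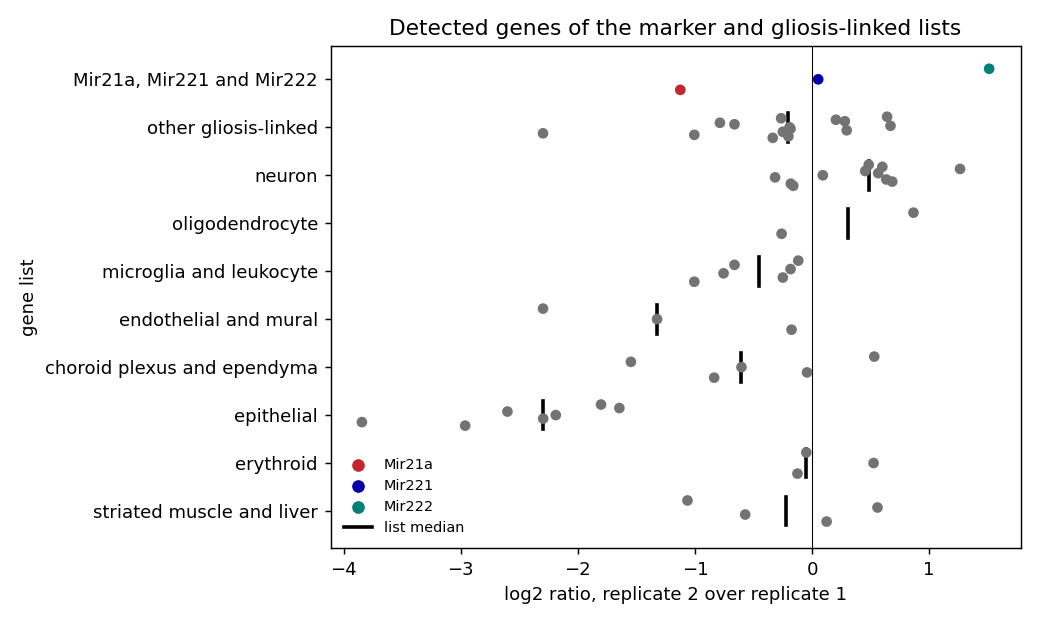
Log2 ratio of replicate 2 over replicate 1 (TMM-scaled) for each detected gene of the cell type lists and of the other gliosis-linked list, 1 point per gene, with list medians as black bars. Mir21a lies at -1.13, and Mir222 at 1.51 lies above every other point shown. All list medians were below 0 except those of the neuron (0.48) and oligodendrocyte (0.30) lists. The medians below 0 ranged from -2.30 (epithelial) to -0.050 (erythroid). With library totals the erythroid median was 0.049, so its sign depends on the scaling. The oligodendrocyte median rests on 2 detected genes of opposite sign.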

How the data were processed

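For each of the 2 libraries the authors deposited 1 table of raw counts by microRNA gene, in 3 count columns: without regard to strand, on the gene's strand, and on the opposite strand. The meaning of the columns was read from their values. Reads were counted on mm10 with GENCODE M21, per the notes deposited beside the tables; for aligner, counter and trimming, the tools are not stated in the sources used here. The labels give a size range under 30, with no unit. The 4 rows that name no gene held 64.8% and 67.0% of the reads and were left out.

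CPM used assigned reads (3421977 and 2820468) as the library size. TMM factors, dispersion and the edgeR exact test came from edgeR 4.0.16 (R 4.3.3), size factors from DESeq2 1.42.0, and exact binomial tests and Clopper-Pearson intervals from scipy 1.17.1. Only the binomial test was tried on simulated counts. These held counting error but no further spread between libraries, so the trial does not bear on that spread here. Ratios are replicate 2 over replicate 1. Without molecular identifiers, the intervals cover counting error only.

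The genes and lists were chosen with earlier results of these data known. Named were the 3 genes, the 3 detected genes nearest to each in level, genes with the seed or a 20-base run of a member, and the most abundant genes of the lists; any other gene was named after its values were seen. Alternatives were the library scaling, count column, read minimum, hairpin length, a GC correction, the error model and leaving out a replicate.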

Additional observations from a re-analysis of the deposited data

How the results depend on the processing

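Mir222 stayed higher and Mir21a lower in replicate 2, and both stayed called, under DESeq2 size factors, library totals, the column without regard to strand, no minimum count, a minimum of 100 reads and a linear GC correction. Mir222 ranged from 1.43 to 1.61 and Mir21a from -1.18 to -1.01. The log2 ratio of Mir221 was -0.00094 with DESeq2 size factors (adjusted p = 0.97, exact binomial test), 0.020 with the column without regard to strand (adjusted p = 0.17) and 0.15 with library totals, a scaling that moved the median of all genes to 0.15. The sign and the call of Mir221 thus depend on the scaling. With the edgeR exact test the log2 ratios were -1.13 for Mir21a, 0.052 for Mir221 and 1.51 for Mir222, none past the threshold, and the number of differing genes fell from 263 to 2 (23 at an unadjusted p under 0.05), since this test adds the spread between the libraries to the error.

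With all reads as the library size the mean level was 488 CPM for Mir21a, 2611 CPM for Mir221 and 780 CPM for Mir222, as the larger total requires. Per kb of hairpin the levels were 15373 (Mir21a), 80721 (Mir221) and 29428 (Mir222), a change of unit. Leaving out a replicate leaves the other library's value: 931 to 1897 CPM for Mir21a, 7267 to 8070 for Mir221, 1147 to 3503 for Mir222, and 69.7% to 86.4% for the Mir221 share of the pair. No paired analysis was possible because there is 1 group. With 2 libraries, depth does not limit these 3 genes; the number of libraries does.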

Other observations

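Hairpin GC content differed among the 3 genes, at 45.7% for Mir21a, 47.4% for Mir221 and 54.4% for Mir222. The mature arms had 36.4% (miR-21a-5p), 59.1% (miR-21a-3p), 38.5% (miR-221-5p), 47.8% (miR-221-3p) and 52.2% (miR-222-3p). Only the hairpin values entered the fit, the correction and the comparison below, so these do not cover the GC content of the arms. The linear fit of the log2 ratio on GC content over all detected genes had a slope of 0.023 per percentage point. The residual log2 ratios from this fit were -1.01 for Mir21a, 0.13 for Mir221 and 1.43 for Mir222. Among the 61 detected genes within 2 percentage points of the GC content of Mir21a, 34 were lower and 27 higher in replicate 2, with a median of -0.075. Among the 72 such genes around Mir222, 40 were lower and 32 higher, with a median of -0.050. The part of GC content in the differences of the 3 genes was not tested.

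On the X chromosome 37 microRNA genes were detected. By mean CPM Mir221 had rank 2 among them, after Mir652 (11410 ± 1680 CPM), and Mir222 had rank 6. Mir222, at 2325 ± 1666 CPM, stood between Mirlet7f-2 (2713 ± 230 CPM) and Mir676 (1856 ± 123 CPM). With 1147 CPM in replicate 1 and 3503 CPM in replicate 2, it lay below both means in replicate 1 and above both in replicate 2. Rank 6 is therefore not a settled place. Of the 13 detected genes that lie within an annotated untranslated region of a protein-coding gene on the same strand, Mir21a had rank 3 by mean CPM. It stood at 1414 ± 683 CPM, after Mir27b at 1531 CPM, which shares sequence with another gene. The SD of Mir21a was larger than that gap, so its rank here is not settled.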
